A study of Mus musculus with 2 samples.

Results

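The HoxB cluster genes are the 10 protein-coding Hox genes that lie side by side on mouse chromosome 11, namely Hoxb13, Hoxb9, Hoxb8, Hoxb7, Hoxb6, Hoxb5, Hoxb4, Hoxb3, Hoxb2 and Hoxb1 in their order along the forward strand. A member was found by its symbol in the deposited list that joins each peak of the histone mark H3K27me3 to the genes within 5 kb of it, and a member missing from that list would have had no peak within this reach. All 10 members were found among the 4987 gene symbols that this list names. The chromatin came from wild-type chondrocytes of newborn CD1 mice, an outbred stock. Rib cartilage was digested with collagenase, and the released cells spent a night in serum-containing medium before chromatin was cut with an enzyme and precipitated with an antibody against H3K27me3. The data are 1 library of the precipitated DNA (ChIP, 17237574 tags after filtering) and 1 library of input DNA from chromatin without precipitation (17004082 tags), grouped here by their titles. The antibody tags in the sample labels are the other way round, with H3K27me3 given for the input and input given for the precipitated DNA. The labels give neither the number nor the sex of the animals, and a mark of medium strength in all cells cannot be told apart from a strong mark in some of them. Neither library had a replicate, so no difference below has an error between animals or a test.

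H3K27me3 is laid down on histone H3 by Polycomb repressive complex 2 (PRC2) and is found on chromatin whose genes are kept silent. Hox genes encode homeodomain transcription factors that give each level of the body axis its identity, including which vertebrae bear ribs. Genes at the 3′ end of a cluster (group 1) act towards the head and genes at the 5′ end (group 13) towards the tail, and the clusters are classical targets of PRC2. Genes that hold the same place in different clusters are paralogues and share a group number.

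Sequences are shown for the 2 microRNAs encoded inside the cluster, since both lay under a peak, and for 3 stretches before HoxB starts of the RefSeq promoter table that were wholly under peaks. The mature microRNAs are from RefSeq, with the seed (bases 2 to 8) in capitals. The microRNA miR-196a-5p, known to repress Hoxb8, is encoded at chr11:96265187-96265208 (GRCm38.p6, forward strand) between Hoxb13 and Hoxb9. The microRNA miR-10a-5p is encoded at chr11:96317186-96317208 on the same strand, inside the deposited record of Hoxb4 and upstream of the start that the RefSeq gene table gives this gene.
mmu-miR-196a-5p: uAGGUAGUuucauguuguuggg
mmu-miR-10a-5p: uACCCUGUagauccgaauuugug

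The stretches are the 250 bases before the start used in the RefSeq promoter table, for the members with an entry there (Hoxb8, Hoxb4 and Hoxb1; GRCm38.p6, forward strand). That start is not always the outermost one. The Hoxb8 stretch lies inside the longer gene of the RefSeq gene table, which begins at 96279401, the Hoxb1 stretch runs past the gene table start at 96365746, and the Hoxb4 stretch lies inside the deposited record of Hoxb4. They lie at chr11:96281655-96281904 for Hoxb8, chr11:96318017-96318266 for Hoxb4 and chr11:96365508-96365757 for Hoxb1. Capitals mark, on either strand, the CCAAT box, the TATAAA box and TGATNNAT, the letter pattern bound by Hox and Pbx proteins together.
Hoxb8: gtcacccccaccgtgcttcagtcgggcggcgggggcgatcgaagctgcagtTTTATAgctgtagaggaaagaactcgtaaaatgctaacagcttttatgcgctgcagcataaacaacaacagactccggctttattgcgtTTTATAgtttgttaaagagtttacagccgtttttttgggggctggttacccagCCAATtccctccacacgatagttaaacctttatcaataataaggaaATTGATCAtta
Hoxb4: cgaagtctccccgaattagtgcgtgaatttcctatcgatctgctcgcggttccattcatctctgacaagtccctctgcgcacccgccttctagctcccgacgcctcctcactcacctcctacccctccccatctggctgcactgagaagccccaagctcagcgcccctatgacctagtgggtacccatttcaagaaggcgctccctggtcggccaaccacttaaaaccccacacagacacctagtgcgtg
Hoxb1: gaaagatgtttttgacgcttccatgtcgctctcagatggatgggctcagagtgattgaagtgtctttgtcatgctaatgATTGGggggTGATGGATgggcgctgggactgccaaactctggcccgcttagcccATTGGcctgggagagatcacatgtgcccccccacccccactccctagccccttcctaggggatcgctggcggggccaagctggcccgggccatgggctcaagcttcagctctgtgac
The stretch of Hoxb8 held 12 CG pairs, that of Hoxb4 14 and that of Hoxb1 7, while the median of the same stretch over all 32851 RefSeq windows was 6. The ratio of observed to expected CG pairs was 0.974 at Hoxb8, 0.760 at Hoxb4 and 0.320 at Hoxb1, beside a median of 0.374 over all windows. All 3 stretches were above the median in CG pairs, and Hoxb1 was below it in the ratio. Hoxb8 and Hoxb1 each held 1 match to TGATNNAT, which 7.68% of all windows hold at least once. Hoxb8 held 1 CCAAT and Hoxb1 held 2 (33.8% of windows), and Hoxb8 held 2 matches to TATAAA (12.4% of windows). GAGAG, which is in 54.7% of windows, was found 2 times at Hoxb1 and not at the others, and it is not capitalised. The Hoxb4 stretch held none of these motifs. A match is a description of letters, not of a bound site.

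All 10 HoxB genes carried H3K27me3 within 5 kb (95% Wilson interval 72.2 to 100%, counting error only), in a background where 20.7% of the 21896 protein-coding genes did. Peaks lay over the deposited gene record of all 10, against 14.2% of protein-coding genes, and over the start of 9, against 4.45%. The call over Hoxb2 was lost without peaks of a q-value above 0.05 and by the RefSeq gene table, which left 9, and the covered starts became 7 by the gene table, 7 without peaks of a q-value above 0.01 and 6 without those under 3.5-fold. Genes of a cluster are neighbours that share peaks, so these 10 are not independent observations: 9 peaks were assigned to several members at a time, and a member had between 1 and 5 peaks. Hoxb2 was the member whose start was not under a peak. From Hoxb13 to Hoxb1 the cluster spans 173.9 kb, and peaks covered 146.2 kb of it (84.1%), while peaks covered 3.82% of chromosome 11 up to its last gene.

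**Figure D1:**
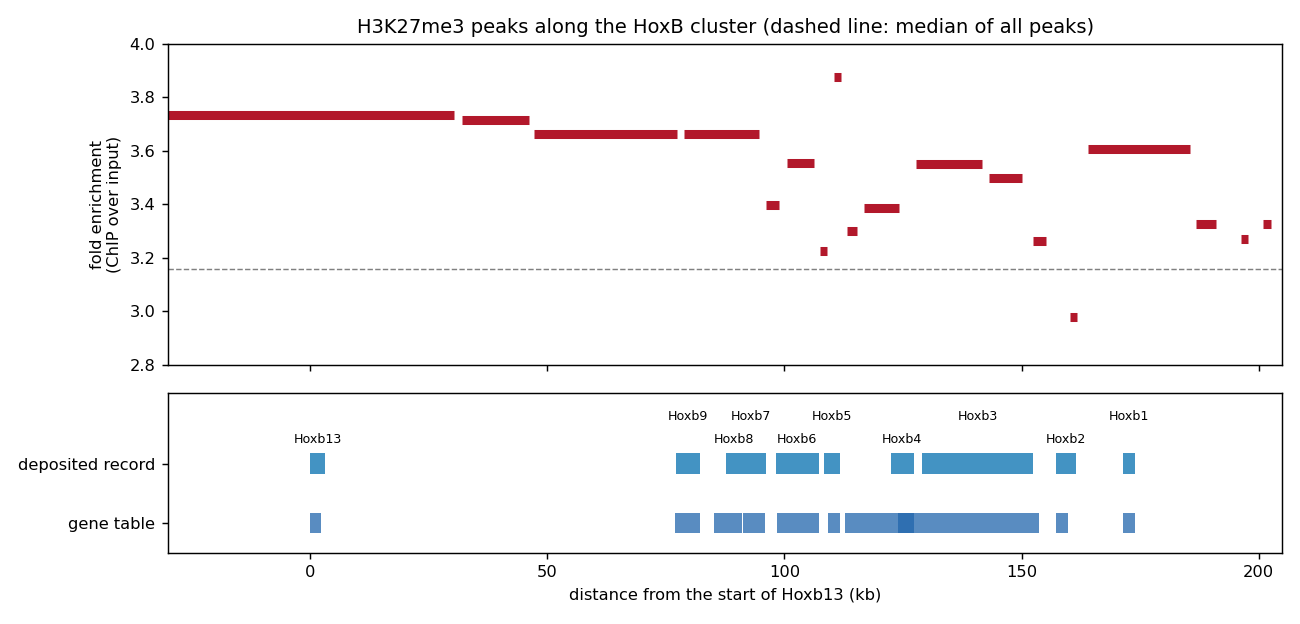
Upper panel, fold enrichment of each H3K27me3 peak against distance from the start of Hoxb13 in kb, each bar as long as the peak is wide, with the axis beginning above 0. Lower panel, the 10 genes as the deposited annotation and the RefSeq gene table place them; the 4 peaks from Hoxb13 to Hoxb7 are 14.1 to 65.6 kb wide with 3.66- to 3.74-fold enrichment, and the 10 from Hoxb6 to Hoxb2 are 1.51 to 14.0 kb wide with 2.98- to 3.88-fold enrichment.

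The cover came in 15 peaks. Fold enrichment is the authors' ratio of ChIP fragments to the local input, and the pileup counts the ChIP fragments lying over a base, averaged along the peak. The cluster opened with a peak of 65.6 kb at chr11:96159004-96224560, the 6th widest of all 19359 peaks, with a pileup of 14.0 and a fold enrichment of 3.74. Hoxb13, which acts in the tail bud and in the prostate, lay wholly inside it, with its start 35313 bp after the peak's beginning and 30243 bp before the peak's end. A further 2 peaks filled most of the wide stretch without a Hox gene that follows. A peak of 14.1 kb (pileup 12.9, 3.71-fold) had no gene within 5 kb, and a peak of 30.2 kb (pileup 13.52, 3.66-fold) held Mir196a-1 and ended inside Hoxb9. From Hoxb13 to the start of Hoxb9, 96.3% of 77.0 kb was under these 3 peaks.

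Hoxb9, a gene of the thoracic level, had its start under the last 270 bp of the 30.2 kb peak. A gap of 1469 bp followed inside the gene, and the rest of it lay under a peak of 15.7 kb at chr11:96273198-96288945 (pileup 13.76, 3.66-fold), so that 71.4% of the record was covered. That same peak held all of Hoxb8, a gene known for its part in blood progenitors, and 77.1% of Hoxb7. The start of Hoxb8 lay 7039 bp and that of Hoxb7 4687 bp before the peak's end. Hoxb8 and Hoxb7 therefore shared their H3K27me3 measurement, and differed only at the 3′ end of Hoxb7 and in the peaks downstream of it.

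Hoxb6, whose group is known for directing rib formation, had peaks at its start and through most of its body, with 69.0% of the record covered. The peak at its start was 2.71 kb wide, with a pileup of 11.7 (3.40-fold, q-value 0.0170), and it ended 735 bp into the record. After a gap of 1714 bp a peak of 5.54 kb (pileup 13.41, 3.55-fold) covered the middle of the gene. Hoxb5, a gene of the cervical to thoracic transition, had a peak of 1.55 kb (pileup 11.88, 3.23-fold) at the deposited start and another of 1.51 kb over its 3′ end, with a gap of 1352 bp between them. The 3′ peak, at chr11:96304664-96306176, had the highest fold enrichment of the cluster, 3.88 (pileup 13.24, q-value 0.00230), and stood at rank 130 of all peaks by this value. It was also the narrowest of the cluster, and its input background of 2.673 was the lowest of the 15. The background was derived here from the pileup and the fold enrichment, and its lowest value over all 19359 peaks was 2.672.

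Hoxb4, known for expanding blood stem cells and for patterning neck vertebrae, was mostly uncovered. A peak of 7.39 kb at chr11:96311038-96318430 (pileup 13.67, 3.38-fold) covered the deposited start and Mir10a, and ended 1745 bp into the record. The following 3208 bp of Hoxb4 fell into a gap of 3590 bp, so that 35.2% of the record was covered. Input background under the 7.39 kb peak was 3.33, the highest of the 15 peaks and above that of 96.7% of all peaks, and its part in the lower fold enrichment was not tested. Hoxb3, a hindbrain gene with long and overlapping transcripts, had its deposited start 12717 bp before the end of a peak of 14.0 kb (pileup 12.5, 3.55-fold). A second peak of 6.89 kb (pileup 12.36, 3.496-fold) brought the cover of the record to 83.9%. Outside the deposited records lay a peak of 2.03 kb (pileup 12.11, 3.30-fold) between Hoxb5 and Hoxb4 and a peak of 2.85 kb (pileup 11.17, 3.26-fold) just past Hoxb3, and both overlap the longer Hoxb3 of the gene table.

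Hoxb2, a hindbrain gene as well, was the exception of the cluster. A gap of 4989 bp at chr11:96349538-96354526, the longest between Hoxb13 and Hoxb1, held its start and its first 2894 bp, and its start lay 2096 bp from the nearest peak. The length of this gap rests on weak peaks beside it, and became 8.83 kb without peaks of a q-value above 0.05, 14.0 kb without those above 0.01 and 22.3 kb without those under 3.5-fold. The only peak over its record, at the 3′ end, was 1.53 kb wide and the weakest of the cluster, with a pileup of 9.97 and a q-value of 0.0886 at a fold enrichment of 2.98. The lowest pileup of any peak in the list was 9.86. Hoxb1, which specifies the facial nerve segment of the hindbrain, lay wholly inside a peak of 21.5 kb at chr11:96358368-96379850 (pileup 13.41, 3.61-fold), with its start 14097 bp before the end of that peak. The weakest and the last wide peak of the cluster were thus separated by 2310 bp.

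**Figure D2:**
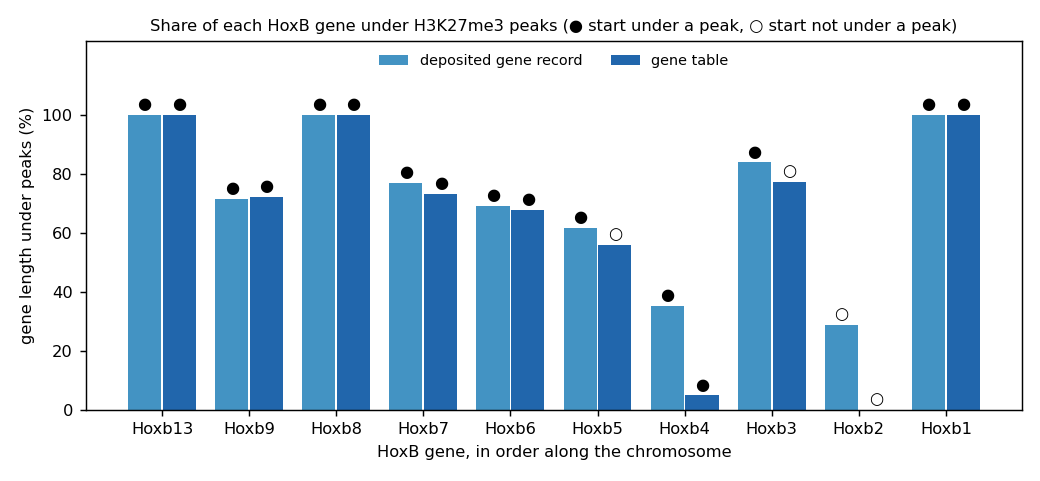
Percent of each HoxB gene's length under peaks, in chromosome order, for the deposited gene record and for the RefSeq gene table. Filled circles mark a start under a peak and open circles a start outside; Hoxb13, Hoxb8 and Hoxb1 are at 100% in both, and Hoxb4 and Hoxb2 are lowest in both.

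The position of a start depended on the gene model, because the deposited records and the RefSeq gene table place some HoxB genes differently. By the RefSeq coordinates 7 of the 10 starts were under a peak. The start of Hoxb5 moved 916 bp downstream, into a gap 201 bp beyond a peak, and that of Hoxb3 moved by -16226 bp, that is upstream,, to 447 bp before a peak. The gene table start of Hoxb2 was 2095 bp from a peak, and its whole 2389 bp lay uncovered, 507 bp from the nearest peak. Cover of Hoxb4 dropped to 4.86% by the gene table, since its start moved 1582 bp downstream and 164 bp of the gene remained before the gap. The starts of Hoxb9 and Hoxb6 lay 398 bp before a peak's end in each case. By either source 8 members had more than 50% of their length under peaks, with medians of 74.3% (deposited) and 72.7% (gene table). The gene table gives no exons, so peaks could not be placed in exons, introns or untranslated regions.

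Along the cluster, the start-covering peak ended within 1 kb downstream of the deposited start at Hoxb9, Hoxb6 and Hoxb5. These are 3 of the 9 members with a covered start (33.3%), and the same held for 22.8% of all 975 protein-coding genes with a covered start. Among the 314 of these genes that lay under a peak of 10 kb or more, the share was 2.87%. That share is not a like comparison for the 3 members. Only the start of Hoxb9 lay under so wide a peak (30.2 kb), while those of Hoxb6 and Hoxb5 lay under peaks of 2.71 and 1.55 kb. Median reach of the peak downstream of the start was 4687 bp in the members and 3044 bp in all such genes, and upstream 7385 bp and 2830 bp. The 1 kb limit was chosen after the values were seen.

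The 14 gaps between the 15 peaks added up to 27.7 kb and had a median of 1512.5 bp. Of these, 10 were under 2 kb, and only the gaps at Hoxb4 and Hoxb2 exceeded 3 kb. These 2 gaps held 30.9% of all uncovered length. The smallest gap anywhere in the list was 1177 bp, just above 4 times the modelled fragment length of 294 bp (1176 bp), so that shorter breaks were not listed. The shortest HoxB gap, of 1200 bp between Hoxb13 and Hoxb9, was thus near the finest break that the list can show. The files give no value between peaks, so a gap is a stretch without a call and not one shown to lack the mark. Cover fell from 96.3% between Hoxb13 and Hoxb9 to 78.8% from Hoxb9 to Hoxb5 (6 peaks over 34.8 kb) and 71.9% from there to Hoxb1 (8 peaks over 62.1 kb), with peaks that cross a limit counted on both sides.

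Set beside all peaks, those of the HoxB cluster were wide and somewhat higher. Their median width was 6.89 kb against 1.27 kb, and 6 of 15 were 10 kb or wider, beside 3.46% of all peaks. Median fold enrichment was 3.55 against 3.16, and 8 of 15 reached 3.5, beside 9.56% of all peaks. A mean q-value of at most 0.01 was met by 10 of 15, beside 11.0%, and of at most 0.05 by 14 of 15, beside 60.8%. Median pileup was 12.9 fragments against 11.04, and median input background 2.96 against 2.75. Among peaks of 10 kb or more the difference in fold enrichment was smaller, with 3.66 (3.55 to 3.74) for the 6 HoxB peaks and 3.497 for all 670. The 9 narrower HoxB peaks ranged from 2.98 to 3.88 with a median of 3.38, beside 3.15 for all narrower peaks. Neighbouring peaks of a cluster come from the same 2 libraries, and these differences were described without a test.

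**Figure D3:**
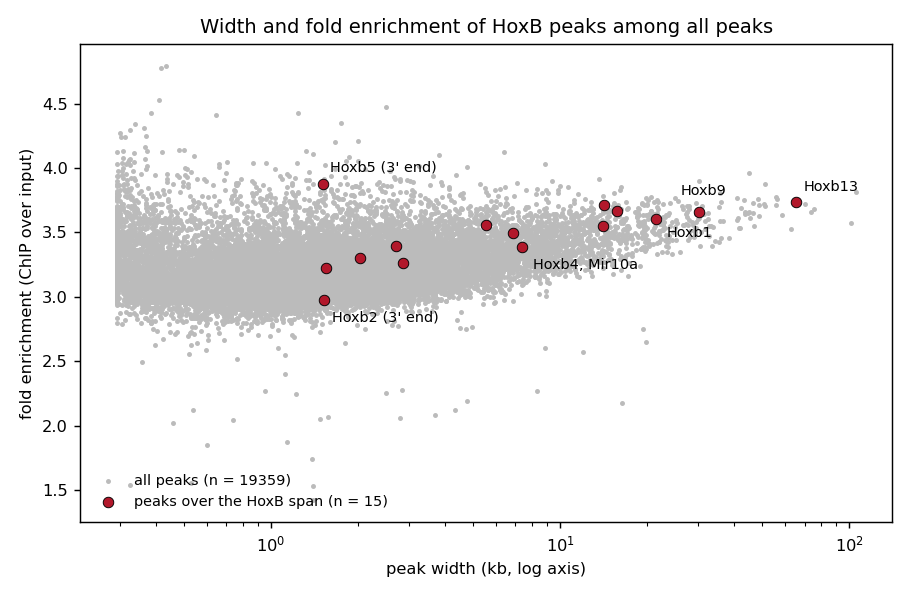
Fold enrichment against width in kb (log axis) for all 19359 peaks in grey and for the 15 peaks over the HoxB span in red. The wide HoxB peaks lie near 3.6- to 3.7-fold, while the narrow ones spread from 2.98 at the 3′ end of Hoxb2 to 3.88 at the 3′ end of Hoxb5.

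The mark did not stop at the outermost HoxB genes. Cover was 69.1% in the 100 kb before Hoxb13 and 72.3% in the 100 kb after Hoxb1. When peaks within 5 kb of each other were joined, 25 peaks formed a domain of 283.6 kb at chr11:96101630-96385215, which ranked 2 of 10770 domains by length, behind a domain of 390.0 kb on chromosome 9. The median domain was 2.06 kb long. The HoxB domain holds together across the gap of 4989 bp at Hoxb2, which is just under the joining limit of 5 kb. Without peaks of a q-value above 0.05 that gap was 8.83 kb, beyond the limit, so Hoxb1 would be split from the other members. As joined from all peaks, the domain reached 92.7 kb beyond Hoxb13 and 17.0 kb beyond Hoxb1, and 81.4% of it was under peaks. Its protein-coding genes were the 10 HoxB genes, Calcoco2, an autophagy receptor gene, and Ttll6, a tubulin-modifying enzyme gene. On the Hoxb13 side, Ttll6 had 67.3% and Calcoco2 50.5% of its length under peaks, whereas Atp5g1, which encodes a subunit of mitochondrial ATP synthase, had its nearest peak 6415 bp away. On the Hoxb1 side, Skap1, an adaptor gene of T cells, began 96.3 kb away and had 28 peaks, which covered its start and 72.8% of its length. The next genes on that side were Snx11, with its nearest peak 8323 bp away, and Cbx1, with 1 peak 1679 bp away and none over the gene.

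**Figure D4:**
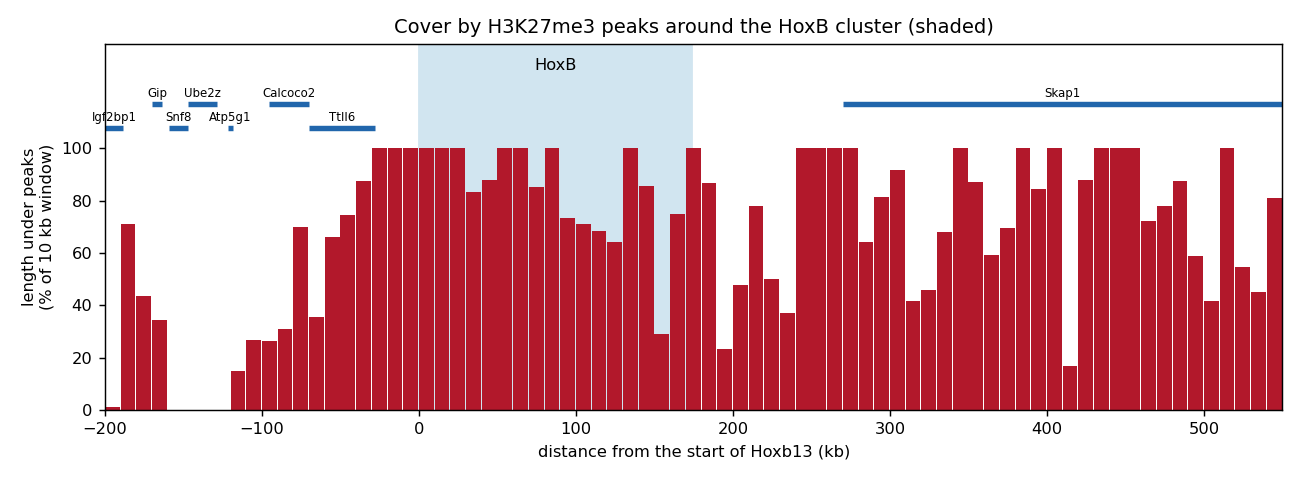
Percent of each 10 kb window under peaks, from 200 kb before to 550 kb after the start of Hoxb13, with the HoxB span shaded and neighbouring protein-coding genes as blue lines. Cover is 100% in 7 of 17 windows that lie wholly inside the span and lowest among those at 29.1% in the window of Hoxb2, and it varies between 16.7 and 100% from there through the drawn part of Skap1.

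Of the 9 non-coding genes and pseudogenes that the gene table lists between Hoxb13 and Hoxb1, 7 were covered over their whole length. These were Gm30134 and Gm11538 under the Hoxb13 peak, Gm11539, Gm53, Gm51876 and Mir196a-1 under the 30.2 kb peak, and Mir10a under the peak at Hoxb4. All but Mir10a lie between Hoxb13 and Hoxb9, where 96.3% of all sequence was under peaks. The antisense genes Hoxb5os (67.9% covered, 4 peaks) and Hoxb3os (40.5%, 2 peaks) crossed several gaps. ChIP reads carry no strand of transcription, so the mark over an antisense gene and over its Hox partner is a shared measurement.

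The other 3 Hox clusters gave the nearest comparison. By the same rule 5 of the 10 HoxA genes analysed were marked (50%, Wilson interval 23.7 to 76.3%), 6 of 9 HoxC genes (66.7%, 35.4 to 87.9%) and 9 of 9 HoxD genes (100%, 70.1 to 100%). Genes that share peaks make these intervals too narrow. The mark of Hoxa7 rests on the deposited gene record, since by the gene table its nearest peak was 5.53 kb away, beyond the reach of 5 kb. The difference lay at the head end of the clusters. In groups 10 to 13 all 11 genes of HoxA, HoxC and HoxD were marked, as was Hoxb13. In groups 1 to 9 the count was 9 of 9 in HoxB and 5 of 5 in HoxD, but 2 of 7 in HoxA and 2 of 5 in HoxC.

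Within the paralogue groups, Hoxb5 and Hoxb6 were marked while Hoxa5, Hoxc5, Hoxa6 and Hoxc6 were not, with the nearest peak of the latter between 10.8 and 26.6 kb away. HoxD has no gene of these groups. Hoxb4 and Hoxd4 were marked, whereas Hoxa4 and Hoxc4 lay 32.4 and 30.7 kb from a peak. Hoxb3 and Hoxd3 were marked and Hoxa3 was not, and Hoxb1 and Hoxd1 were both marked. Hoxa2, the other gene of group 2, had its nearest peak 17.6 kb away, while Hoxb2 had peaks nearby but none over the body that the gene table gives. In group 9 all 4 genes were marked, with 72.1% of Hoxb9 under peaks, 76.4% of Hoxa9, 81.3% of Hoxc9 and 100% of Hoxd9.

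**Figure D5:**
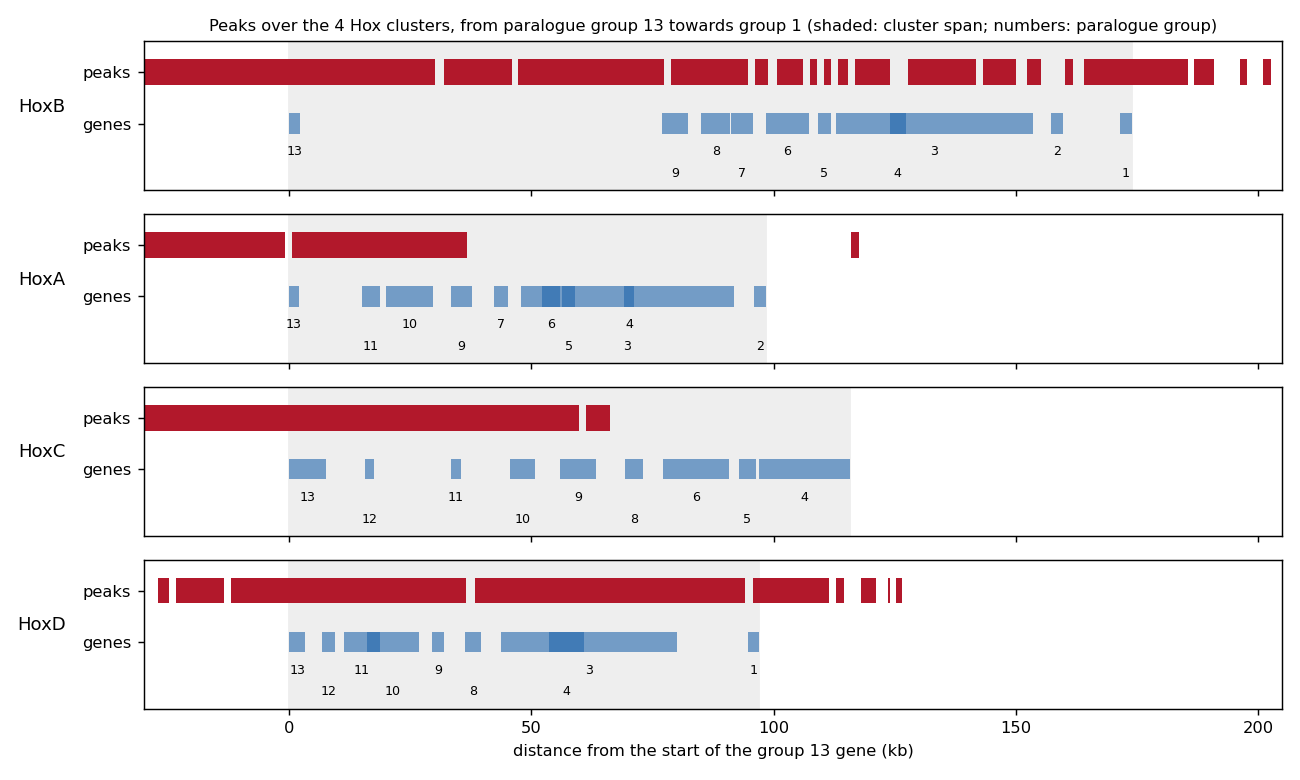
Peaks (red) and genes (blue, by the RefSeq gene table, numbered by group) of the 4 Hox clusters against distance in kb from the start of the group 13 gene, with peaks drawn to the edge of the plot where they reach beyond it. HoxB is covered by 15 peaks with short gaps, HoxD by 3 peaks almost without gaps, and, within the shaded spans, HoxA and HoxC only towards group 13.

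HoxB and HoxD were alike in reach but not in the number of peaks. HoxD had 3 peaks over 96.9 kb, with 96.5% covered and a longest gap of 1.86 kb, which makes 3.10 peaks per 100 kb beside 8.62 in HoxB. From Hoxa13 to Hoxa2, HoxA had 1 peak (36.7% covered), and its longest gap of 61.7 kb held Hoxa7 to Hoxa2. HoxC had 2 peaks (56.1% covered), and its longest gap of 49.4 kb held Hoxc8 to Hoxc4. Hoxb2 was the only gene inside the longest gap of HoxB. Median fold enrichment was 3.55 over the HoxB peaks, 3.73 for the HoxA peak, 3.60 in HoxC and 3.76 in HoxD. Median peak width was 6.89 kb in HoxB, 55.1 kb in HoxC and 48.5 kb in HoxD, and the HoxA peak was 36.1 kb wide. HoxB thus had the lowest median width and the lowest median fold enrichment of the 4 clusters. These medians rest on 15 peaks in HoxB but on 1 in HoxA, 2 in HoxC and 3 in HoxD. The widest HoxB peak (65.6 kb) exceeded the widest of HoxA (36.1 kb) and HoxD (55.8 kb), but not that of HoxC (105.1 kb). The 2 HoxC peaks were at 3.39- and 3.81-fold, on either side of the HoxB median. These clusters were compared as counts and lengths from 1 peak list, and no test of the differences was possible.

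Genes that act with or upstream of HoxB genes were read from lists of 8 genes each, with no test between the lists. Of the 8 Hox cofactor genes analysed (Pbx2 to Pbx4, Meis1 to Meis3, Pknox1 and Pknox2), whose proteins bind DNA together with Hox proteins, 0 had a peak within 5 kb, beside 20.7% of all protein-coding genes, and the nearest peaks were 6.49 kb (Meis2) to 239.6 kb (Pknox2) away. Of the 8 regulators of Hox expression analysed, 7 were marked, and 4 had a start under a peak, beside 4.45% of all protein-coding genes. Cdx2, a homeodomain activator of Hox genes, lay at a peak of 29.5 kb (3.73-fold), and Cyp26a1, which degrades retinoic acid, at a peak of 25.1 kb (3.60-fold). Aldh1a2, which makes retinoic acid, had 11 peaks with a summed width of 68.1 kb. Cdx1, Cdx4 and Egr2 were marked by 2 or 3 peaks each, and Rarb by 1 peak of 0.931 kb (3.001-fold), while the nearest peak to Gdf11 was 37.5 kb away. Col2a1, Acan and Sox9, which chondrocytes express at high level, were not marked, with the nearest peaks 158.7, 162.8 and 1315 kb away. RNA was not measured in these libraries, so the expression of the HoxB genes in the same cells was not analysed here.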

How the data were processed

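DNA from 1 H3K27me3 ChIP library and 1 input library was sequenced. The submitters' processing notes name CASAVA 1.8.4, Bowtie2, MACS2 and the build mm10. The authors called broad peaks with MACS 2.1.0.20140616 (q cutoff 5.00e-02 per the file headers, fragment length 294 bp, local input windows of 1000 and 10000 bp). For each of 19359 peaks the authors deposited the pileup, a coverage signal in ChIP fragments, the fold enrichment, a ratio of ChIP to input, and −log10 p-values and q-values averaged over the peak. A mean q-value of at most 0.05 was met by 60.8% of all peaks, and the highest was 0.0991. A place in the list therefore does not show that a peak met 0.05, and why the other peaks lay above it was not tested. A second deposited table joins peaks to Ensembl gene records within 5 kb, and both tables gave the same values for all 19359 peaks. How that join was made is not given in the sources used here.

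From these files peaks were matched to the HoxB symbols and to a RefSeq gene table of GRCm38.p6, the assembly that mm10 denotes. Of 4987 symbols 4928 (98.8%) matched. Cover, gaps and distances were computed with pandas 2.3.3 and numpy 2.4.6 in Python 3.11.15, tested on simulated intervals, and plotted with matplotlib 3.10.9. Wilson intervals (95%, scipy 1.17.1) cover counting error only. ChIP depth was 17574613 tags (17237574 after filtering) and input depth 17369199 (17004082). Total depth was thus similar, but counting error at a peak also depends on the fragments there. A design of 1 library per group allows no test. Samples were grouped by title. No column of other samples was present. Sequences were read from RefSeq tables, where 3 of 10 members had a promoter window.

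The genes named are the 10 members, the non-coding genes in the span, the 3 nearest protein-coding genes on either side, the other Hox genes, a list of cofactors and of regulators, and 3 chondrocyte genes. Some genes of the comparison lists are not reported here. The members, lists and limits were chosen with earlier results of these data known. Alternatives were stricter peak filters, another reach or gene model, joined peaks and a wider span.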

Additional observations from a re-analysis of the deposited data

How the results depend on the processing

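Of 51 recomputed values over 11 results, 41 stayed within their limits (counts, lengths and shares within 1.5 times the reported value, the median fold enrichment within the interquartile range of the HoxB peaks) and 10 moved. All 10 HoxB genes kept a peak within 5 kb under every filter and under a reach of 2 or 10 kb. The longest stretch of the span without a peak, 4.99 kb over all peaks, became 8.83 kb when mean q-values above 0.05 were dropped, 14.0 kb when those above 0.01 were, 22.3 kb with a fold enrichment of at least 3.5, and 0 kb when peaks within 5 kb were joined. By construction these filters remove peaks, first the weak peak at Hoxb2, and joining closes every gap. The 14 peaks assigned to members became 9 (q-value of at most 0.01) and 7 (fold enrichment of at least 3.5). Their median width of 6.21 kb became 14.0 kb and 15.7 kb under the same pair of filters, and their median fold enrichment of 3.52 became 3.66 under the filter on fold enrichment. Joined among themselves, without the unassigned peak of 14.1 kb after that of Hoxb13, the 14 peaks became 2. With all peaks joined they fell into the single domain of 283.6 kb. Covered starts fell from 9 to 7 with a q-value of at most 0.01 (Hoxb6 and Hoxb5 lost) and to 6 with a fold enrichment of at least 3.5 (Hoxb4 also lost). Members with a peak over the record fell from 10 to 9 under either limit on the q-value (Hoxb2 lost) and to 8 under that on fold enrichment (Hoxb4 and Hoxb2). The HoxC count was 5 under both filters, and HoxA and HoxD stayed at 5 and 9. No paired analysis was possible because the design has a single ChIP and a single input library. The lowest mean pileup of a listed peak was 9.86 fragments, which is not a limit of detection at a single base. No value is given between peaks, so weaker marking in the gaps could not be assessed.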
